A study of Mus musculus with 8 samples.

Results

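Knockdown of Eif4g3 in cultured lymph node stromal cells was read here in total RNA, on the 4 of 8 arrays in the series that compared total RNA of Eif4g3 siRNA cells with total RNA of control siRNA cells. Probes entered where either dye was well above background on 3 or more of these 4 arrays. This left 20712 of 41174 probes, and with 1 probe per gene, the one with the highest signal, 14104 of 27566 gene names were tested.

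The cells were stromal cells of BALB/c lymph nodes, grown on plates in medium with fetal calf serum. Both groups received 400 pmol of siRNA by lipofection, against Eif4g3 or a control siRNA, had their medium changed after 24 h and were harvested at 48 h. Per the design text 7 plates were used for each siRNA, and no label says whether the 4 arrays came from separate cultures. The p-values therefore measure a spread between arrays, which may be technical. That spread is estimated over all 8 arrays of both fractions, so a p-value need not follow the SD over the 4 total RNA arrays. Each array took 200 ng of RNA, with Eif4g3 siRNA RNA in Cy5 and control siRNA RNA in Cy3. The dyes were never swapped, so a dye bias of a probe and a change of its transcript cannot be told apart. The other 4 arrays compared RNA of heavy polysomes from the same 2 treatments, and served here for the estimate of the spread and for a comparison with total RNA.

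Eif4g3 encodes eIF4GII, a relative of the eIF4G1 scaffold. In the eIF4F complex the scaffold joins the cap-binding protein eIF4E to the RNA helicase eIF4A and to the poly(A)-binding protein, and so brings the small ribosomal subunit to the mRNA. Total RNA holds all mRNA of a cell whether or not it carries ribosomes, and its level is set by transcription and decay. Lymph node stromal cells are fibroblast-like and vascular scaffold cells that make the matrix, growth factors and chemokines on which lymphocytes move and survive.

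Of 30 genes listed as markers of lymph node fibroblastic stroma, 24 lay above background in control RNA on all 4 arrays, among them Pdpn, Pdgfra, Pdgfrb, Thy1, Vcam1, Ltbr and Cxcl12. The zone-defining chemokine genes Cxcl13 and Ccl21a were never above background, and Ccl19 was above it on 3 of 4 arrays in control RNA and on 1 in Eif4g3 siRNA RNA. The contractile list was above background for 19 of 20 genes. The summed signal of the stromal list ran from 186013 to 236981 over the control channels and from 159526 to 220260 over the Eif4g3 siRNA channels. The endothelial markers Pecam1, Cdh5 and Lyve1, the leukocyte marker Ptprc and the macrophage markers Adgre1 and Itgam were never above background. Other members of the same lists were above it in both channels on all 4 arrays. Among these were Eng, Egfl7, Flt1, Ramp2 and Vwf of the endothelial list. In the macrophage and myeloid list they included Trem2, Cd14, Lyz2, Csf1r and Cd68. Of the whole lists, 6 of 18 endothelial, 11 of 25 macrophage and myeloid, 2 of 15 lymphocyte and 4 of 12 epithelial markers were above it on all 4 control channels. The summed macrophage and myeloid signal ran from 3404 to 4546 in control and from 2612 to 4205 in Eif4g3 siRNA channels. In such bulk samples fewer cells of a type and less RNA per cell cannot be told apart.

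Array 4 stood apart. Among 147 probes printed in at least 3 spots, the median SD of the log2 ratio between spots of 1 probe was 0.11, 0.08 and 0.07 on arrays 1 to 3 and 0.34 on array 4. The Cy5 spike-in signals of array 4 had a median coefficient of variation of 36.2%, outside the range set in the file header, against 15.6%, 9.06% and 4.98% on arrays 1 to 3. Heavy polysome array 3 had the same 2 features, with a spot SD of 0.35 and 37.2%. Across genes, the ratios of array 4 correlated with those of array 1 at 0.15, of array 2 at 0.49 and of array 3 at 0.34, and the other pairs lay between 0.47 and 0.62. Genes are not independent replicates, and these correlations describe the arrays only. Array 4 also held the lowest ratio for 195 of the 399 genes called lower, as the plot of array properties shows. Results are therefore also given without total RNA array 4 and heavy polysome array 3, a choice made after the data were seen.

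**Figure D1:**
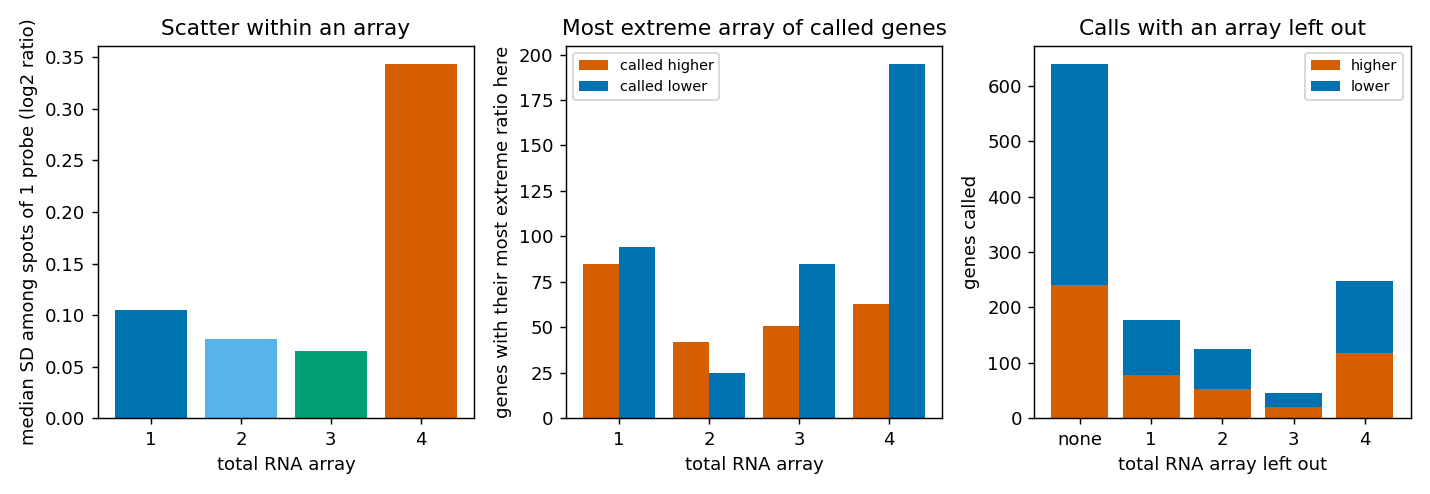
Properties of the 4 total RNA arrays. Left, bars give the median SD of the log2 ratio among spots of 1 probe, 0.34 on array 4 and at most 0.11 on the others. Middle, bars count called genes by the array with their most extreme ratio, 195 lower calls on array 4. Right, stacked bars count genes called higher and lower with all arrays and with each total RNA array left out, from 640 down to 46 without array 3.

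Ratios are given as log2 of Eif4g3 siRNA over control siRNA, as mean ± SD over the 4 arrays, so that 1 unit is a 2-fold difference. A gene is said to have risen or fallen when limma gave an adjusted p under 0.05. Of the 14104 genes, 640 (4.54%) passed, with 241 higher (1.71%) and 399 lower (2.83%). These shares are the background for the counts of called genes in every list below. Each of the 640 had 1 sign on all 4 arrays, as had 35.2% of all tested genes on the arrays measured. The median of all tested genes was -0.04. Changes were modest, with a median of 0.66 among the genes that rose and of -0.66 among those that fell. A fold of at least 1.5 was reached by 162 of the genes that rose (1.15% of all tested) and by 257 of those that fell (1.82%), together 2.97%, and a fold of at least 2 by 30 and 40. The balance of higher and lower calls depended on the scaling. It was 48 higher to 223 lower with median centring without loess, 887 to 658 with Agilent's processed signals and 812 to 689 with the deposited ratio table. Without total RNA array 4 and heavy polysome array 3, 692 genes passed, 320 higher and 372 lower, and 433 of the 640 were among them. Among the genes named by rule 43 calls were lost, and in 22 of them the mean kept at least 0.9 of its size, so a lost call need not mean a smaller change.

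**Figure D2:**
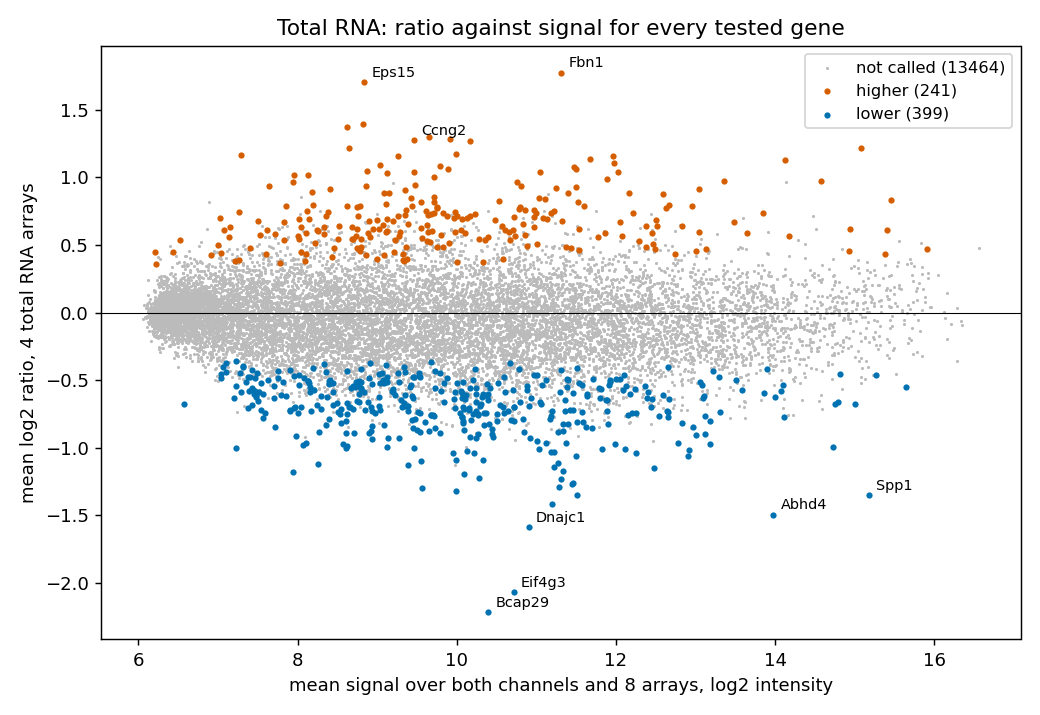
Every tested gene in total RNA, with the mean log2 intensity over both channels and all 8 arrays on the horizontal axis and the mean log2 ratio over the 4 total RNA arrays on the vertical axis. Points are coloured by call, 241 higher, 399 lower and 13464 not called. Bcap29 and Eif4g3 lie lowest, and Fbn1 and Eps15 lie highest.

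The siRNA target itself was 4.20-fold lower. Its probe, at mm8 chr4:137478284-137478343, gave -2.48, -1.81, -1.94 and -2.05 on arrays 1 to 4, a mean of -2.07 ± 0.29 (limma adjusted p = 0.00163). All 4 arrays were well below 0 and close to each other. The second Eif4g3 probe gave -2.95, -1.34, -2.09 and -1.41, with a wider spread and a mean of -1.95 ± 0.75. Among the 25 tested genes of eIF4F and its regulators, Eif4g3 was the only one called (0 higher, 1 lower), and the list's median was -0.10. The paralogue Eif4g1 gave -1.74, -0.25, -0.96 and 0.24, values on both sides of 0 that did not pass (adjusted p = 0.189 in limma). Pabpc1, the poly(A)-binding protein gene, had -0.22 ± 0.21 and did not pass either.

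Only Bcap29 had a larger fall than the target. Bcap29 encodes a membrane protein of the endoplasmic reticulum related to BAP31. Its single tested probe, at mm8 chr12:32181568-32181627, gave -1.71, -2.19, -2.13 and -2.84, a mean of -2.22 ± 0.47 and a 4.65-fold decrease (limma adjusted p = 0.0117). All 4 arrays were far below 0, with array 4 the lowest. The call was lost without array 2 (adjusted p = 0.0538) and without array 3 (0.0577), and without the 2 scattered arrays it stood at -2.01 with 0.0247. Dnajc1, which encodes a co-chaperone of the same membrane that binds the chaperone BiP, had -1.65, -1.16, -1.62 and -1.92 (-1.59 ± 0.32, 3.01-fold, adjusted p = 0.00163). Its other 2 probes had means of -1.0 and -1.15 and passed as well, so all 3 probes of the gene fell together. Canx, the lectin chaperone calnexin, fell with -0.50, -1.13, -0.96 and -1.29, and Os9, a lectin of the degradation pathway for misfolded glycoproteins, with -0.31, -0.55, -0.52 and -0.96. Both were lowest on array 4, and neither passed without the 2 scattered arrays (adjusted p = 0.0655 and 0.0634). In all, 4 of 46 tested genes of endoplasmic reticulum quality control fell and 0 rose (8.70% called, against 4.54% of all tested genes). The list's median of -0.05 was close to that of all genes. Hspa5, the BiP gene, had -0.50 ± 0.36 (adjusted p = 0.0551) and did not pass, nor did Ddit3, which encodes the stress factor CHOP (-0.42 ± 0.30).

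At the other end stood Fbn1, the gene of fibrillin 1, the glycoprotein from which the microfibrils of elastic tissue are built. Its ratios were 1.78, 1.34, 2.06 and 1.91 (1.77 ± 0.31, 3.42-fold, limma adjusted p = 0.00438). No array was near 0, and a second Fbn1 probe rose with 0.77, 0.63, 1.01 and 0.59. The second probe thus had the same direction at 0.75 ± 0.19 but a smaller size. Fbn1 was alone among its partners. Of 22 elastic fibre and microfibril genes 1 rose and 0 fell, and Fbln2 (0.00 ± 0.43), Emilin2 (0.12 ± 0.31) and Efemp2 (-0.18 ± 0.14) did not pass. Eps15, an adaptor of clathrin-coated pits that binds the AP-2 complex, had 1.98, 1.36, 1.64 and 1.82 (1.70 ± 0.27, 3.25-fold, adjusted p = 0.00342). Its second probe had 1.40, 0.80, 1.26 and 0.47, again above 0 on every array.

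Eps15 was part of a divided group. Of 46 genes of endocytosis and clathrin adaptors, 3 rose and 3 fell (13.0% called, against 4.54% of all tested genes). Chmp3, a subunit of the ESCRT-III membrane-cutting machinery, had 0.69 ± 0.33, and Cltb, a clathrin light chain, 0.56 ± 0.24. The genes that fell all encode adaptor subunits, with Ap2a1 (-0.75 ± 0.26) and Ap2a2 (-0.64 ± 0.28) of AP-2, to which Eps15 binds, and Ap1m1 (-0.50 ± 0.19) of AP-1. The calls of Chmp3 and Ap1m1 were lost without the 2 scattered arrays, with adjusted p = 0.105 and 0.0588 in limma. Those of Cltb, Ap2a1 and Ap2a2 were kept in that setting but lost with any 1 total RNA array left out. Their limma adjusted p values then ran from 0.0622 to 0.133, 0.0761 to 0.139 and 0.0512 to 0.0690.

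**Figure D3:**
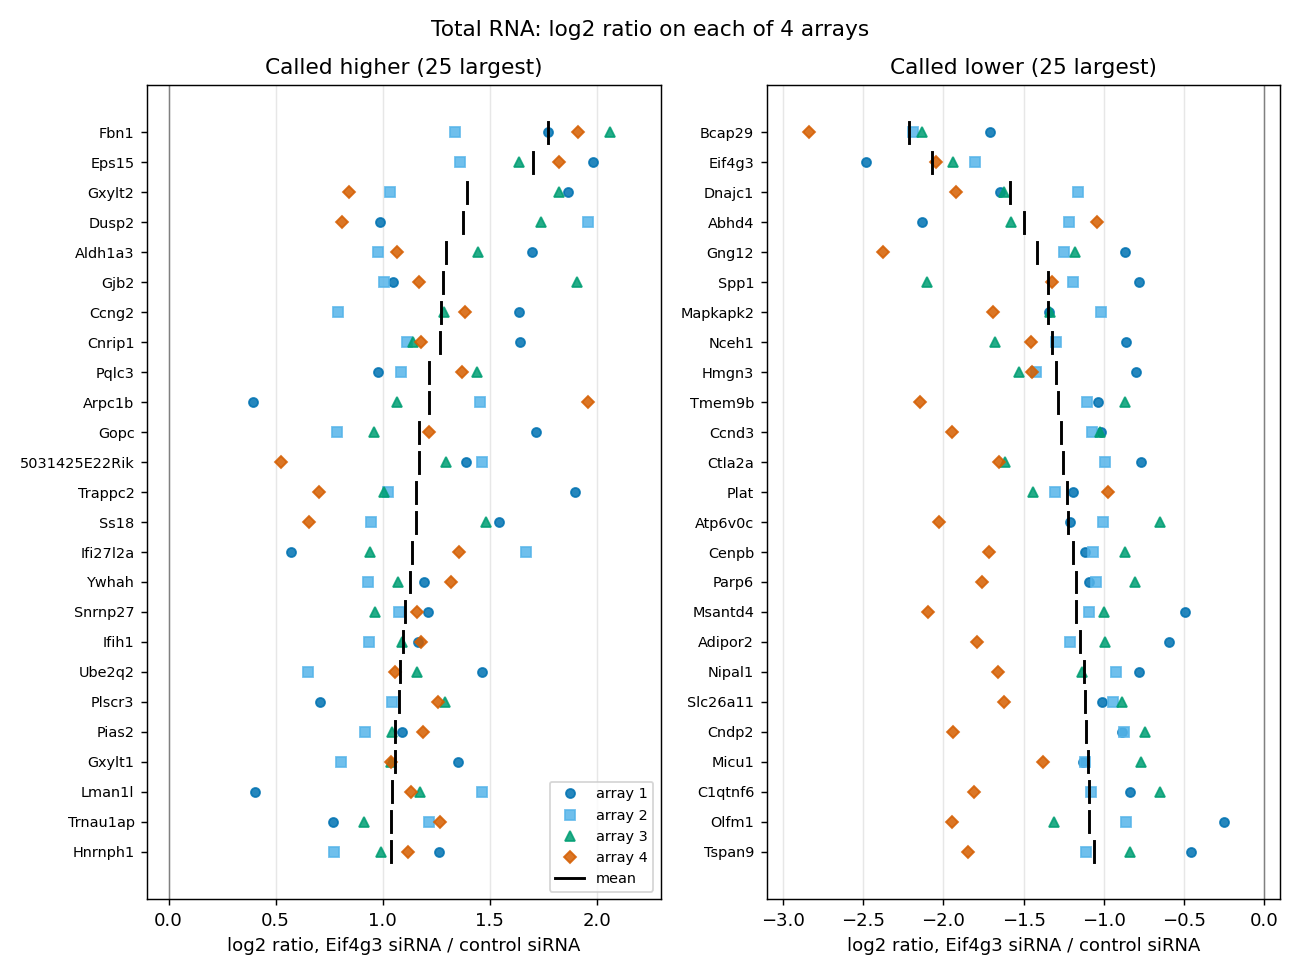
The 25 genes with the largest increase (left) and the 25 with the largest decrease (right) among called genes with RefSeq names. Markers give the log2 ratio on each of the 4 total RNA arrays and the black bar their mean. All markers lie on the same side of 0, as the choice of genes required. Array 4 (diamonds) is the lowest for many genes on the right, as in Gng12 at -2.38.

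Among the other large increases, several encode enzymes. Gxylt2 (1.87, 1.03, 1.83 and 0.84) and Gxylt1 (1.35, 0.81, 1.04 and 1.04) encode the pair of xylosyltransferases that extend O-glucose on the EGF repeats of Notch. Both were above 0 on every array, with means of 1.39 ± 0.53 and 1.06 ± 0.22 and limma adjusted p = 0.00636 and 0.00501. Aldh1a3, which oxidises retinaldehyde to retinoic acid, had 1.70, 0.98, 1.45 and 1.07 (1.30 ± 0.33, adjusted p = 0.00587), and Rdh10, which makes that retinaldehyde from retinol, 0.72, 0.87, 1.25 and 0.72 (0.89 ± 0.25). Rdh10 and Aldh1a3 thus encode consecutive steps of retinoic acid synthesis, while 20 of the 22 retinoid genes did not pass. The list's median was -0.07, or 0.03 with median centring. With 1 total RNA array left out at a time, the limma adjusted p of Rdh10 ran from 0.0370 to 0.0723. Its second probe rose less, as given below. Dusp2, a nuclear phosphatase of MAP kinases, had 0.99, 1.96, 1.74 and 0.81. Gjb2, the gene of connexin 26, had 1.05, 1.01, 1.91 and 1.17. Their means were 1.38 ± 0.56 and 1.28 ± 0.42. Cnrip1, which encodes a protein that binds cannabinoid receptor CB1, had 1.64 on array 1 and 1.12 to 1.18 on the other arrays. A second Cnrip1 probe gave only 0.18 ± 0.10 and did not pass, so the probes of this gene disagree in size.

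Other genes with a mean above 1 included Arpc1b, a subunit of the Arp2/3 actin nucleator (0.39, 1.45, 1.07 and 1.96), Ywhah, a 14-3-3 protein gene (1.13 ± 0.17), the splicing genes Snrnp27 (1.1 ± 0.11) and Hnrnph1 (1.04 ± 0.21), Plscr3, a phospholipid scramblase gene (1.08 ± 0.27), and Trappc2, of a vesicle tethering complex (1.16 ± 0.52). Snrnp27 and Ywhah were nearly equal on all arrays, whereas Arpc1b varied widely. Another subunit of the same Arp2/3 complex, Arpc4, fell (-0.73 ± 0.45), with -1.34 on array 4 and no call without the 2 scattered arrays (-0.53, limma adjusted p = 0.0669). The other Arpc4 probe gave -0.05 ± 0.10 and did not pass. Il17d, a cytokine gene of the interleukin 17 family, had 1.02, 0.87, 1.12 and 1.01, almost the same value on every array (1.00 ± 0.10, adjusted p = 0.0054). It was the only one of 37 tested chemokine and cytokine genes to pass. Ccl2 (-0.37 ± 0.50) and Ccl7 (-0.30 ± 0.33), which attract monocytes, were not called.

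The largest decreases after Bcap29, Eif4g3 and Dnajc1 covered lipid handling, signalling and secreted proteins. Abhd4, a lipase of N-acyl phospholipids, had -2.14, -1.22, -1.58 and -1.04 (-1.50 ± 0.48, 2.82-fold, limma adjusted p = 0.00636). Nceh1, which hydrolyses cholesterol esters, had -0.86, -1.30, -1.68 and -1.45 (-1.32 ± 0.35). Both were below -0.8 on every array. Spp1, the gene of osteopontin, a secreted matricellular phosphoprotein, had -0.78, -1.19, -2.10 and -1.32 (-1.35 ± 0.55, adjusted p = 0.0325). Its lowest value came from array 3, and leaving out any of the 4 arrays gave an adjusted p from 0.0622 to 0.139, while without the 2 scattered arrays it was 0.0261. Mapkapk2, the kinase downstream of p38, had -1.34, -1.02, -1.34 and -1.69 (-1.35 ± 0.27, adjusted p = 0.00883). Its second probe, at -0.54 ± 0.54, had the same sign and did not pass.

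For several of these genes array 4 lay far below the rest. Ccnd3, the gene of cyclin D3, had -1.02, -1.07, -1.03 and -1.94. Gng12, a G protein gamma subunit gene, had -0.87, -1.25, -1.18 and -2.38, Atp6v0c, of the proton pump of lysosomes, -1.21, -1.0, -0.65 and -2.03, and Cndp2, a dipeptidase gene, -0.89, -0.88, -0.74 and -1.94. Arrays 1 to 3 were still below 0 in each of them. Without the 2 scattered arrays their limma adjusted p values were 0.0349, 0.0423, 0.0178 and 0.0296, with means of -1.04, -1.10, -0.96 and -0.84. The second Gng12 probe, at -0.13 ± 0.61, did not follow. Olfm1 (-1.09 ± 0.72), Nipal1 (-1.13 ± 0.39) and Msantd4 (-1.17 ± 0.67) no longer passed without the 2 scattered arrays, at 0.066, 0.0564 and 0.0665. Ccnd3, Gng12 and Atp6v0c did not pass with any 1 total RNA array left out. Their limma adjusted p values then ran from 0.0548 to 0.0738, 0.0726 to 0.118 and 0.0537 to 0.0711. Those of Cndp2 ran from 0.0442 to 0.0705.

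The changes were ordered by 53 gene lists, and the 50 with at least 10 tested genes are plotted by their medians on each array. The lowest median among those 50 belonged to the aminoacyl-tRNA synthetases, the enzymes that charge tRNAs with amino acids. It was -0.29, -0.36, -0.33 and -0.17 on arrays 1 to 4, and -0.34 over the gene means against -0.04 for all tested genes. Of the 20 genes 18 lay below 0, but only 2 fell at the threshold and 0 rose. These were Sars, for serine (-0.44, -0.40, -0.57 and -0.26), and Cars, for cysteine (-0.78, -0.49, -0.73 and -0.13). Their limma adjusted p values of 0.0479 and 0.0445 were near the threshold. Sars did not pass with any 1 total RNA array left out (0.079 to 0.181), nor did Cars without array 1, 2 or 3 (0.122 to 0.171). Genes of amino acid synthesis and other targets of the stress factor ATF4 had the next lowest median, -0.30, with -0.02 on array 4 and -0.17 to -0.37 on the others. Of 33 such genes 3 fell and 0 rose. They were Shmt2, a mitochondrial serine hydroxymethyltransferase gene (-0.65 ± 0.36), Aldh18a1, for proline synthesis (-0.53 ± 0.18), and Gpt2, an alanine transaminase gene (-0.45 ± 0.21). Asns (-0.34 ± 0.36), Psat1 (-0.30 ± 0.43) and Atf4 itself (-0.49 ± 0.61) did not pass and had array values on both sides of 0. Gpt2 lost its call without the 2 scattered arrays (adjusted p = 0.0545).

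**Figure D4:**
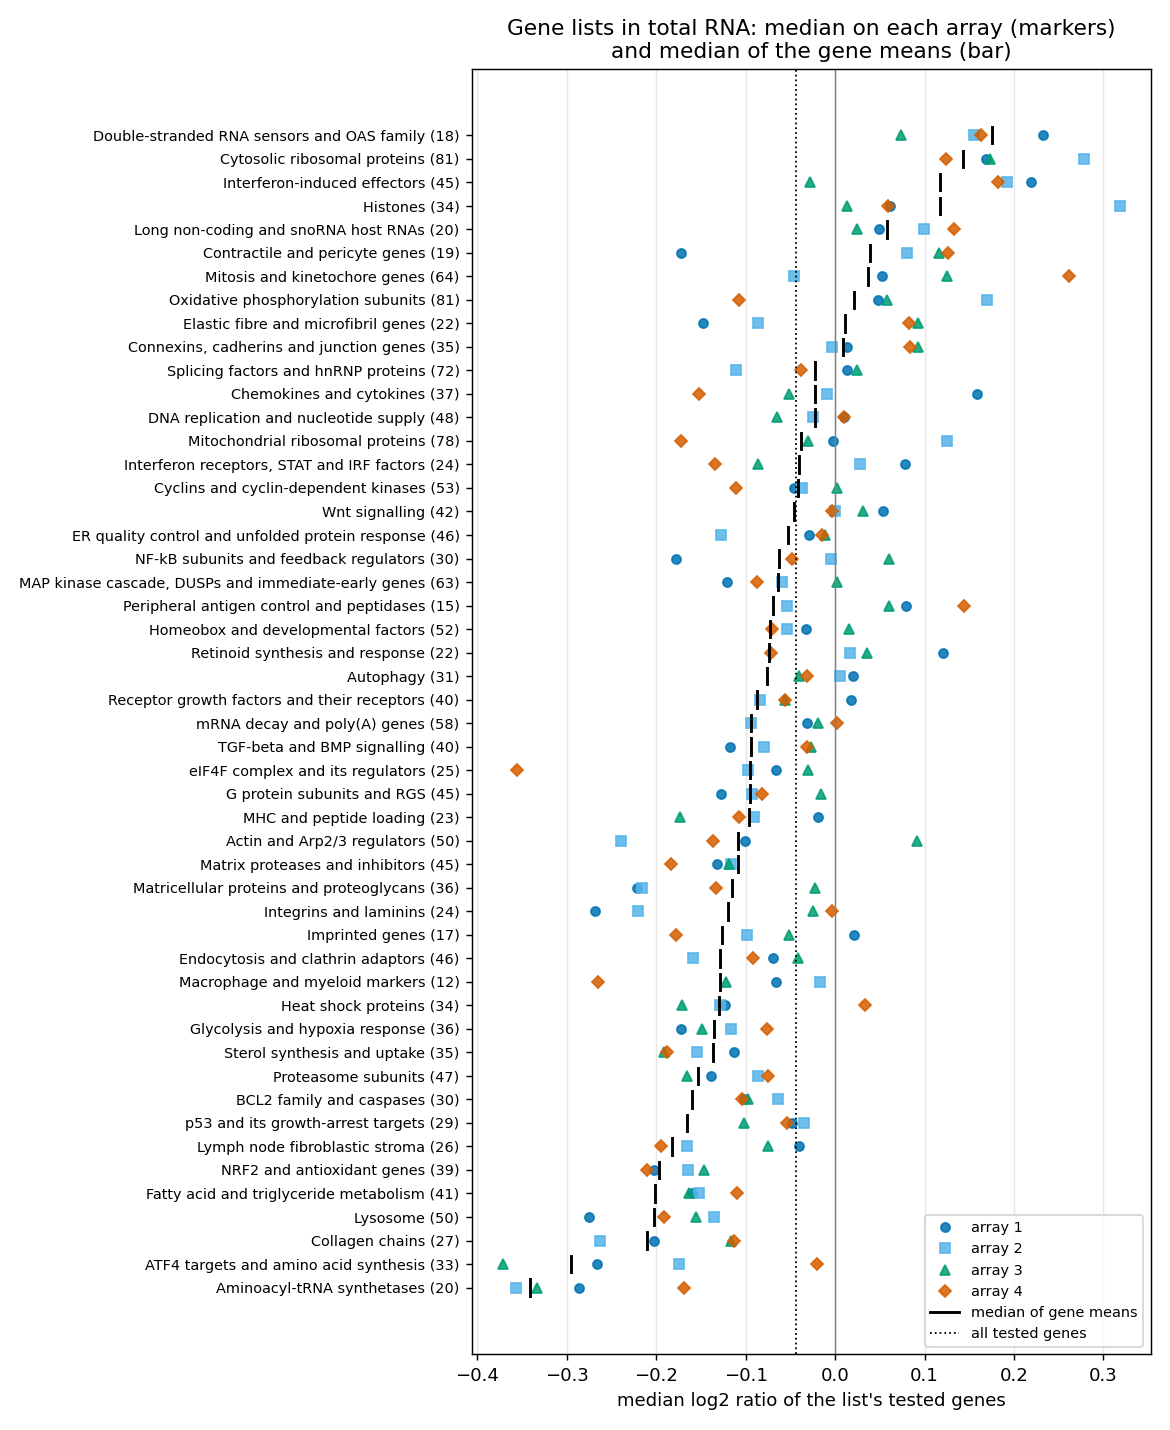
Median log2 ratio in total RNA of the 50 gene lists with at least 10 tested genes, with the number of tested genes in parentheses. Markers give the median on each array, black bars the median of the gene means, and the dotted line the median of all tested genes, -0.04. Aminoacyl-tRNA synthetases lie lowest at -0.34, and double-stranded RNA sensors lie highest at 0.18.

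Ribosomal protein genes went the other way in size but rarely passed. The median of the 81 cytosolic ribosomal protein genes was 0.17, 0.28, 0.17 and 0.12 on arrays 1 to 4, and 0.14 over the gene means, with 62 genes above 0. It was -0.03 with median centring without loess, so its direction depended on the scaling. Rpl41 was the only member called (0.18, 0.57, 0.41 and 0.73, mean 0.47 ± 0.23), and its call was lost without the 2 scattered arrays (limma adjusted p = 0.0634). Mitochondrial ribosomal proteins (78 genes, median -0.04) had 1 call, Mrps24, which rose by 0.47 ± 0.14. Of the 81 genes of oxidative phosphorylation 1 was called, the complex I gene Ndufb9, at -0.66 ± 0.22.

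All called genes of the fatty acid, glycolysis and antioxidant lists were lower. The list of fatty acid and triglyceride metabolism had a median of -0.20, and 12.2% of its genes were called against 4.54% of all tested. Of its 41 genes 5 fell and 0 rose. Besides Abhd4 these were Cpt1a, which admits fatty acids to mitochondria (-0.37 ± 0.16), Acadl (-0.48 ± 0.20) and Hadha (-0.52 ± 0.13) of their oxidation, and Acly, which makes cytosolic acetyl-CoA (-0.60 ± 0.30). Genes of both breakdown and synthesis are thus among them. Both Cpt1a probes fell, the second with -0.65, -0.42, -0.48 and -0.61. In glycolysis 3 of 36 genes fell and 0 rose (8.33% called). Eno1, the main enolase gene, had -1.14, -1.20, -0.67 and -0.67 (-0.92 ± 0.29), Eno2 -0.41 ± 0.16 and Hk1, a hexokinase gene, -0.62 ± 0.09. Hk1 had 5 tested probes, of which 4 gave means from -0.44 to -0.72 and the fifth -0.06. Of 39 NRF2 and antioxidant genes 4 fell and 0 rose (10.3% called), with a list median of -0.20. Prdx5, a peroxiredoxin gene, had -0.57 ± 0.22, Srxn1, which repairs peroxiredoxins, -0.77 ± 0.38, G6pdx, the entry to the pentose phosphate pathway, -0.96 ± 0.52, and Gsto1, a glutathione transferase gene, -0.99 ± 0.48. The last pair had -1.73 and -1.70 on array 4 against -0.63 to -0.84 on the others, and both still passed without the 2 scattered arrays (limma adjusted p = 0.0277 and 0.0126). Calls of Cpt1a, Eno2 and Prdx5 were lost in that setting (0.0764, 0.0905 and 0.0592).

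Of 50 lysosomal genes 3 fell and 0 rose (median -0.20, 6% called against 4.54% of all tested genes). They were Atp6v0a1, a proton pump subunit gene (-0.89 ± 0.12), Naglu, an enzyme of heparan sulfate breakdown (-0.74 ± 0.54), and Mcoln1, a lysosomal ion channel gene (-0.46 ± 0.18). Naglu had -1.54 on array 4 and between -0.37 and -0.56 on the others. In autophagy Wipi1, an early membrane factor, had -0.82, -0.53, -1.06 and -1.32 and was the only one of 31 genes to pass. Of 35 sterol genes 2 fell, Nceh1 and Mvd, a mevalonate pathway enzyme gene (-0.66 ± 0.46, with -1.30 on array 4). Atp6v0a1 and Mvd lost their calls without the 2 scattered arrays (limma adjusted p = 0.0512 and 0.0517). The mean of Atp6v0a1 was then as large, at -0.93, and that of Mvd smaller, at -0.45. A second Atp6v0a1 probe gave -0.01 ± 0.13.

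Sensors of double-stranded RNA switch on interferon genes, and interferon in turn raises the sensors and a broad set of antiviral effectors. Of 18 tested genes of double-stranded RNA sensing and the OAS family 2 rose and 0 fell. Ifih1, which encodes the sensor MDA5, had 1.17, 0.94, 1.09 and 1.18 (1.09 ± 0.11, 2.14-fold, limma adjusted p = 0.00888). Oasl1, an inducible relative of the oligoadenylate synthetases that restrains Irf7 translation, had 0.76, 0.92, 0.96 and 0.89 (0.88 ± 0.08, adjusted p = 0.0122). Both genes had close values on all 4 arrays, including array 4. Without array 3 the adjusted p was 0.0537 for Ifih1 and 0.0718 for Oasl1, and 0.0616 for Oasl1 without array 2. The other sensors gave a wider spread, as in Ddx58, the RIG-I gene, with -0.57, 0.44, -0.14 and 0.85, and Oas1a, with 0.53, 1.18, -0.01 and 1.28. Neither passed, and the list's median was 0.18. Among 45 interferon-induced effectors Ifi27l2a was the only one called, with 0.57, 1.67, 0.94 and 1.36 (1.14 ± 0.48, adjusted p = 0.0122). Isg15 (0.07 ± 0.41), Ifit1 (0.51 ± 0.20) and Ifitm3 (-0.11 ± 0.12) did not pass. In the pathway itself Irf5, an interferon regulatory factor gene, rose (0.58 ± 0.20), while the receptor kinases Jak1 (-0.49 ± 0.05) and Tyk2 (-0.62 ± 0.24) fell, so 1 of 24 genes rose and 2 fell. Calls of Irf5 and Tyk2 were lost without the 2 scattered arrays, at adjusted p = 0.0584 and 0.0756 with means of 0.57 and -0.62, close to those over all arrays. The other 2 Jak1 probes gave -0.09 and -0.59, and a second Ifi27l2a probe 0.37.

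The 250 bases before the gene start of Ifih1 and Oasl1 are printed because these were the called sensor genes and many interferon-induced promoters hold paired GAAA half-sites. Sequences are from RefSeq on GRCm38.p6, each 5′ to 3′ on the gene's strand, with GAAA or its complement TTTC in capitals. Ifih1 lies at chr2:62646256-62646505 on the minus strand and Oasl1 at chr5:114922990-114923239 on the plus strand.
Ifih1: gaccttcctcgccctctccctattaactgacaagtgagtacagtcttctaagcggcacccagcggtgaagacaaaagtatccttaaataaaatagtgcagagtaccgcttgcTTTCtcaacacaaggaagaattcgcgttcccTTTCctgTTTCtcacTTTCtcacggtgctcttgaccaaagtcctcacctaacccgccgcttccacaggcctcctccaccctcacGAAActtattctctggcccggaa
Oasl1: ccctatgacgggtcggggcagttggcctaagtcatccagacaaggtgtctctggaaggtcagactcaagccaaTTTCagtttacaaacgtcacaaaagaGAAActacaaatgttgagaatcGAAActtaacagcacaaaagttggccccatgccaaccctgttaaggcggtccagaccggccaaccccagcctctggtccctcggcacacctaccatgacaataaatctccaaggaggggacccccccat
The Ifih1 window held 5 half-sites and the Oasl1 window 3, searched on both strands, and 86.4% of all 32851 promoter windows held at least 1. The paired core, GAAA followed after any 2 bases by a second GAAA, was in neither window. It was present in 2.98% of all windows, 3.12% of those of tested genes, 3.33% of genes called higher and 2.37% of genes called lower. Of 32 interferon-induced effector genes with a window 15 held it.

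Fbn1 apart, the matrix and integrin genes that passed were lower. Of 27 collagen chain genes 2 fell and 0 rose (7.41% called, against 4.54% of all tested genes), with a list median of -0.21. They were Col1a2, a chain of type I collagen (-0.52, -0.26, -0.22 and -0.84), and Col18a1, a basement membrane collagen with both probes lower (-0.59 ± 0.12 and -0.53 ± 0.14). Neither passed without the 2 scattered arrays (limma adjusted p = 0.0801 and 0.0805). Of 36 matricellular and proteoglycan genes 3 fell, Spp1, Tnxb, the gene of tenascin X (-0.97 ± 0.32), and Sparc (-0.55 ± 0.19). Among 45 matrix proteases and inhibitors Plat, the gene of tissue plasminogen activator, had -1.19, -1.30, -1.44 and -0.98 on one probe and -0.98, -0.87, -1.09 and -1.38 on the other. Every value of both probes was below -0.8, with means of -1.23 ± 0.20 and -1.08 ± 0.22. Adam19 (-0.70 ± 0.20) and Adamts9 (-0.44 ± 0.07), both metalloprotease genes, also fell, the first without a call when the 2 scattered arrays were left out (adjusted p = 0.0544). Adamts9 did not pass with any 1 total RNA array left out (limma adjusted p 0.0682 to 0.135). Over the settings tried its ratio ran from -1.27 to -0.09. The integrin genes Itga9 (-0.86, -0.80, -0.76 and -0.74) and Itgb3 (-0.56 ± 0.09) fell, among 24 integrins and laminins. Their other probes gave -0.22 ± 0.11 and 0.10 ± 0.29 and did not pass, the latter with the opposite sign. Of the stromal marker list 2 of 26 genes fell and 0 rose, Col1a2 and Anpep, the aminopeptidase CD13 (-0.75 ± 0.42). The contractile gene Cnn1, which encodes calponin, rose by 0.43 ± 0.15 and was not called without the 2 scattered arrays (adjusted p = 0.0665), while Acta2 (0.04 ± 0.29) was not called at all.

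Growth factor genes moved in both directions, with 2 higher and 3 lower of 40. Fgf2 (0.75, 0.64, 0.60 and 0.87) and Fgf10 (0.58, 0.43, 0.64 and 0.64) rose, while Fgf7 (-1.17, -0.46, -1.01 and -0.51) fell. Fibroblast growth factors of the same family were thus on opposite sides, and Fgf7 and Fgf10 share a receptor. The rises of Fgf2 and Fgf10 did not pass with any 1 total RNA array left out. Their limma adjusted p values then ran from 0.0782 to 0.0882 and from 0.0979 to 0.143. Those of Fgf7 ran from 0.0372 to 0.0960, and a second Fgf2 probe gave 0.28. Vegfd, a lymphatic growth factor gene, fell with -0.49, -1.05, -0.92 and -0.60, and Ereg, the epiregulin gene, with -1.22, -1.04, -0.89 and -0.76. The other Ereg probe, at -0.12 ± 0.20, did not pass. Smad2, a transducer of TGF-beta signals, rose with 0.89, 0.68, 0.88 and 0.76 (0.80 ± 0.10), as did Id1, a target of BMP signals (0.56 ± 0.24), among 40 genes with 0 lower. In Wnt signalling Lef1, a transcription factor of the pathway, rose (0.78 ± 0.19) and Axin1, a scaffold that promotes beta-catenin decay, fell (-0.71 ± 0.26), out of 42 genes. Without the 2 scattered arrays the calls of Id1, Ereg and Axin1 were lost (limma adjusted p = 0.0528, 0.0762 and 0.0756), while their means were about as large, at 0.55, -1.05 and -0.73.

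Of 45 G protein and RGS genes 6 fell and 0 rose (13.3% called, against 4.54% of all tested genes). Besides Gng12 these were the alpha subunits Gna14 (-1.14, -1.01, -0.72 and -1.13), Gnai2 (-0.72 ± 0.32) and Gnai1 (-0.39 ± 0.09), the cyclase Adcy7 (-0.74 ± 0.25) and Rgs16, which speeds the shut-off of alpha subunits (-0.86, -0.89, -1.04 and -0.01). Rgs16 was not lower on array 4, and Gnai1 lost its call without the 2 scattered arrays (limma adjusted p = 0.0634). In the MAP kinase list of 63 genes Dusp2 and Dusp10 (0.54 ± 0.35) rose, and Mapkapk2 and Map2k6, a kinase that activates p38 (-0.48 ± 0.18), fell. The first pair are phosphatases of MAP kinases. Dusp10 lost its call without the 2 scattered arrays (0.0611), with a mean of 0.61.

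In the homeobox and developmental list 5 of 52 genes rose and 1 fell. Hoxb7 had 1.07, 0.96, 1.02 and 0.82 (0.97 ± 0.11, limma adjusted p = 0.00587). Hoxa5 (0.42 ± 0.15) and Hoxc6 (0.40 ± 0.06), positional transcription factors like Hoxb7, rose less, and Runx2, a bone transcription factor, by 0.65 ± 0.31. All 4 of these genes were above 0 on every array, and only Hoxa5 among them lost its call without the 2 scattered arrays (adjusted p = 0.0578). Twist1, a mesenchymal transcription factor, fell with -0.48, -0.56, -0.78 and -0.49. The list's median was -0.07, 0.05 with Agilent's processed signals and 0.03 with the deposited ratio table, so the direction of the list as a whole depended on the scaling. With loess 22 of the 52 genes lay above 0. The other 2 Runx2 probes gave 0.76 and 0.05.

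The medians of the cyclin and kinase, mitosis and DNA replication lists were -0.04, 0.04 and -0.02, against -0.04 for all tested genes. Called genes made up 9.43%, 3.1% and 0% of these lists, against 4.54% of all tested genes. Ccng2, the gene of cyclin G2, which is associated with cell cycle arrest, had 1.64, 0.79, 1.29 and 1.38 (1.28 ± 0.35, limma adjusted p = 0.00438). Ccnh (0.92 ± 0.25), of the kinase that activates other cyclin-dependent kinases, and Cdk9 (0.44 ± 0.16), of transcription elongation, also rose. Ccnd1, the gene of cyclin D1, fell (-0.67, -0.54, -0.59 and -0.39) with Cdk14 (-0.70 ± 0.49), giving 3 higher and 2 lower of 53. Ccnd3, described above, is not in that list. The cyclin D1 call had an adjusted p of 0.0484 and was lost with any 1 total RNA array left out (0.0904 to 0.163). Without the 2 scattered arrays Ccnd1, Cdk14 and Cdk9 stood at 0.0561, 0.0694 and 0.0634. Only 1 of 4 Ccnh probes passed, and the others had means of 0.35, -0.21 and 0.27. Of 64 mitosis genes Cdca3 (0.61, 0.75, 0.70 and 0.95) and Birc5, the survivin gene (0.79, 0.59, 0.54 and 0.44), rose, while a second Cdca3 probe gave -0.04 ± 0.17. By limma 0 of 48 DNA replication genes and 0 of 34 histone genes were called, with 10 and 3 at an unadjusted p under 0.05. Of all 14104 tested genes 3162 were at such a p. Among p53 targets 2 of 29 fell, Btg2, an antiproliferative partner of the CCR4-NOT deadenylase (-0.87 ± 0.44), and Phlda3 (-0.68 ± 0.18), while Cdkn1a (-0.47 ± 0.25) did not pass.

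Of 72 splicing factor and hnRNP genes Hnrnph1 rose and 4 genes fell, the core spliceosome genes Prpf8 (-0.61 ± 0.29), Prpf6 (-0.64 ± 0.18) and Prpf19 (-0.67 ± 0.41) and the SR protein gene Srsf5 (-0.53 ± 0.21). Snrnp27 and Wdr33, a gene of mRNA 3′ end processing, are outside these lists and rose. In mRNA decay Ago3, an Argonaute gene, rose (0.58 ± 0.27, with 0.14 and -0.11 on its other probes), while Cnot1 (-0.60 ± 0.29) and Cnot6l (-0.45 ± 0.23) of the CCR4-NOT deadenylase, its partner Btg2 and the Argonaute partner Tnrc6c (-0.52 ± 0.34) fell, out of 58 genes. Without the 2 scattered arrays the calls of Prpf8, Cnot6l and Tnrc6c were lost, with limma adjusted p = 0.0515, 0.0916 and 0.0515. By limma 0 of 47 proteasome subunits, 0 of 30 NF-kB genes and 0 of 20 long non-coding RNAs were called. An unadjusted p under 0.05 was reached by 10, 5 and 4 of them, and by 3162 of all 14104 tested genes.

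A second probe gave a check within the same arrays. Of the 640 called genes 256 had another tested probe, and in 200 of these every other probe had the same direction. By pairs of probes the sign was shared in 87.4% of 214 pairs for lower calls and in 71.3% of 129 pairs for higher calls, against 65.2% of 6251 pairs in genes not called. In 29 genes, 8 higher and 21 lower, every other probe was itself called in that direction, with single probes called at a rate of 4.16% of 20712. Besides Eif4g3, Dnajc1, Fbn1, Eps15, Plat, Col18a1 and Cpt1a these included Slit2, an axon guidance ligand gene (-1.01 ± 0.24 and -0.90 ± 0.10), Ptx3, a pentraxin gene (-1.03 ± 0.51 and -1.26 ± 0.62), Qsox1, a sulfhydryl oxidase gene (-1.04 ± 0.27 and -0.98 ± 0.27), Glg1, a Golgi glycoprotein gene (-0.77 ± 0.21 and -0.76 ± 0.24), and the nuclear receptor gene Rora (-0.55 ± 0.30 and -0.55 ± 0.27). In Anapc5, of the anaphase-promoting complex, the probes rose by 0.97 ± 0.30 and 0.61 ± 0.28. In 56 genes at least 1 other probe had the opposite sign, as for Bcl2l1, the apoptosis inhibitor gene, with 0.38 ± 0.13 on its brightest probe and -0.10 and -0.32 on the others. Gnai1 had 0.15 on its other probe, Lgr4 0.56 and 0.05 on the other two, Cgnl1 -1.02, -0.33 and -0.05, and Wdr33 0.31, 0.15 and -0.44. Other named genes had a second probe of the same sign and under 0.5 of the size, among them Rdh10 (0.41), Lef1 (0.25), Fgf2 (0.28) and Plscr3 (0.27). Adam19 had -1.17 and -0.22 on its other probes, and Rrbp1 -0.33, -0.58 and -0.66. Lnpep, an aminopeptidase gene, had 0.72 ± 0.32 on one probe and -0.42 ± 0.07 on the other. Pias2 had 1.06 ± 0.11 and 0.98 ± 0.24 on 2 probes and 0.25 and -0.24 on the other two. Without the 2 scattered arrays the calls of Rora and Bcl2l1 were lost (limma adjusted p = 0.0666 and 0.0657). The main probe of a called gene was picked out by its own call, so a smaller ratio on the other probe is not a test of the gene.

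**Figure D5:**
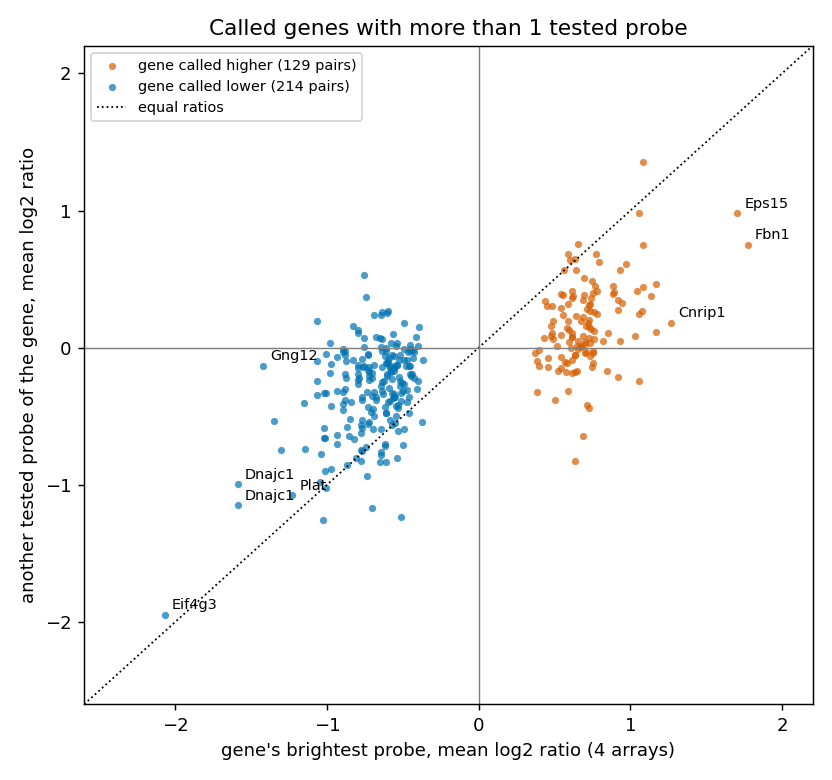
Called genes with more than 1 tested probe, 343 pairs of probes. The horizontal axis gives the mean log2 ratio of the gene's brightest probe, which made the call, and the vertical axis that of another tested probe of the same gene. Points on the dotted line have equal ratios. Eif4g3 and Plat lie close to it, and Gng12 and Cnrip1 lie near 0 on the vertical axis.

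A few calls stood up to the loss of any single array. When each of the 4 total RNA arrays was left out in turn, 34 of the 640 genes passed every time, 19 higher and 15 lower. Named after their values were seen, those with RefSeq names included Fbn1, Eps15, Gxylt2, Gxylt1, Aldh1a3, Ccng2, Cnrip1, Pqlc3, Pias2, Trnau1ap, Il17d, Hoxb7, Lgr4, Selenof, Ptar1, Pwp2, Ppfibp2, Wdr33 and Czib among the increases and Eif4g3, Dnajc1, Abhd4, Parp6, Slc26a11, Rrbp1, Cgnl1, Neurl4, Natd1, Dctn1, Ppp3ca and Aph1a among the decreases. Selenof and Trnau1ap are both linked to selenocysteine, the first as a selenoprotein gene with a mean of 0.91 and the second as a factor of its incorporation with 1.04 ± 0.24. Rrbp1, which encodes a ribosome-binding protein of the rough endoplasmic reticulum, had a mean of -1.02, and Lgr4, a receptor for R-spondins, of 0.93. Every other call was lost in limma without at least 1 of the 4 arrays, and with array 3 left out 46 genes passed in all.

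Total RNA was set against heavy polysome RNA in the same fit. In heavy polysome RNA 1299 genes passed (9.21%), and 396 genes passed in both, which is 61.9% of the total RNA calls and 30.5% of the heavy polysome calls. All 396 had the same direction, and 628 of the 640 total RNA calls had the same sign in heavy polysome RNA (98.1%), against 70.6% of all 14104 tested genes. Both fractions have the same dye orientation, so a dye bias of a probe would act alike in both. Eps15 had 1.70 ± 0.27 in total and 1.59 ± 0.47 in heavy polysome RNA, Ccng2 1.28 ± 0.35 and 1.45 ± 0.19, and Dnajc1 -1.59 ± 0.32 and -1.58 ± 0.20. The difference of heavy polysome minus total RNA was called by limma for 0 of 14104 genes, with 740 genes at an unadjusted p under 0.05, of which 85 were called in total RNA, and 0 in all other settings tried but 1. Cenpb, which encodes a centromere protein, had -1.12, -1.07, -0.87 and -1.71 in total RNA and 0.06 ± 0.54 on heavy polysomes, a difference of 1.25 (95% interval 0.64 to 1.86, adjusted p = 0.845). Aph1a, a subunit gene of gamma-secretase, had -0.79, -0.74, -0.66 and -0.61 in total RNA and 0.12 ± 0.15 on heavy polysomes, a difference of 0.82 (0.54 to 1.1, adjusted p = 0.845). Both were lower in total RNA on every array and had a mean near 0 on heavy polysomes, where Cenpb scattered more widely. Neither difference passed. With array quality weights 5 differences passed, Aph1a, Clec2d, Ppp1r15a and St3gal3 with higher and Arpc1a with lower values in heavy polysome RNA. Wipi1 (-0.93 and -0.21) and Gnai2 (-0.72 and -0.10) also had smaller means in heavy polysome RNA, without a called difference.

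The macrophage and myeloid list included 1 call. Csf1r, the receptor of the growth factor Csf1, fell with -0.48, -0.22, -0.65 and -0.94 (-0.57 ± 0.30, limma adjusted p = 0.0438), and it was not called without the 2 scattered arrays (0.0691). Trem2 (-0.80 ± 0.64), Cd14 (-0.38 ± 0.51) and Lyz2 (-0.04 ± 0.29) did not pass, and 11 of 25 listed genes, Ptprc among them, were never above background. Krt19, a keratin gene in the epithelial list, fell with -0.86, -0.74, -1.0 and -0.61, while Cdh1 was never above background. Their part in the other results was not tested. Among called genes 623 were above background in both channels on all 4 arrays. In 2 it was so in 1 channel only. Gstt4, a glutathione transferase gene, was 1.6-fold lower as measured (limma adjusted p = 0.0395, with -0.68 ± 0.38, and 0.0764 without the 2 scattered arrays). The transcript AK087643 was at least 1.24-fold higher (adjusted p = 0.0475, with 0.36 ± 0.09 measured). The bound for AK087643 sets the brighter channel against the lowest signal above background in the dimmer one, or the measured signal where that was higher. For Gstt4 the measured signal was no lower than that level, so its fold is no bound. Both values are open to dye bias.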

How the data were processed

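The authors' scanner files hold, per the file headers, mean spot and median background signals as intensity, from Agilent Feature Extraction 10.7.3.1 (10.5.1.1 for total RNA array 2), and a log10 ratio. The deposited value table gives log2 ratios, Cy5 to Cy3, of processed signals (100% of 40929 single-spot probes within 0.01), with total RNA column medians of 0.27, 0.31, 0.27 and 0.09, so it was not centred. Probe coordinates are mm8 per the file headers.

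Control spots and 134 to 211 marked spots per total RNA array were left out, and no spot was saturated. Background was corrected by normexp (offset 50), ratios were normalised by loess (span 0.3), and spots of 1 probe were averaged. RefSeq records of GRCm38.p6 named 80.3% of 41174 probes, and 12526 of 14104 tested genes. limma 3.58.1 (R 4.3.3) fitted 1 coefficient per fraction over all 8 arrays, two-sided, with Benjamini-Hochberg adjustment over all tested genes, and single probes were adjusted over 20712. Plots used Python 3.11.15 and matplotlib 3.10.9. Tested on simulated data with 14104 genes, the fit found 49% of changes set at 1.5-fold and 92% of those at 2-fold for total RNA, beside 10 false calls. The simulated noise was independent, with 1 spread per gene on all arrays, and changes were the same in both fractions. Unequal scatter of the arrays and dye bias were not simulated, so these rates need not hold for the real arrays. The number of arrays limits the precision.

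Members and lists were chosen with earlier results of these data known. Genes named were Eif4g3, the 25 largest changes each way with RefSeq names and 1 sign on all arrays, up to 6 called members per list, or with fewer than 2 the 3 of highest signal, genes called with every probe, and genes above background in 1 channel. Other genes named, such as further list members, were chosen as pathway reference points after values were seen. A few genes that these rules name are not reported here.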

Additional observations from a re-analysis of the deposited data

Results flagged for a closer look

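Of 170 called genes named by the rules with 4 values, 11 had 1 array far from the other 3 by Dixon's criterion at its 95% level, and chance gives about 1 in 20. That rate is for unselected values of equal scatter. These genes were selected by their calls and array 4 scattered more, so the rate cannot serve as a test. In 7 of the 11 the array far from the rest was array 4, which was lower than the others in each. There Shmt2 stood at -1.19 with the other arrays between -0.55 and -0.43, Naglu at -1.54 with -0.56 to -0.37, and G6pdx at -1.73 with -0.80 to -0.63. Gsto1 stood at -1.70 with -0.84 to -0.67, Cndp2 at -1.94 with -0.89 to -0.74, Slc26a11 at -1.62 with -1.01 to -0.89, and Ccnd3 at -1.94 with -1.07 to -1.02. All 7 were below 0 on the other arrays as well.

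On array 1 Cnrip1 was higher than elsewhere, at 1.64 against 1.12 to 1.18, and Hmgn3, a nucleosome-binding protein gene, was less low, at -0.80 against -1.53 to -1.43. Qsox1 on array 2 was less low, at -0.64 against -1.21 to -1.15. Jak1 on array 3 was lower, at -0.56 against -0.48 to -0.46. No named gene had all total RNA arrays on one side of 0 and all heavy polysome arrays on the other.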

How the results depend on the processing

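All 640 calls kept their direction in the 21 alternatives wherever they were measured, except 2 under the mean of all tested probes, where Bcl2l1 reversed to -0.0147. In many settings this was fixed in advance. All 399 lower and 241 higher calls had 1 sign on all 4 total RNA arrays, so leaving out or reweighting an array could not reverse them. The number of calls moved much more. Against 640, limma called 271 with median centring, 1686 with arrays scaled to 1 median absolute deviation, 1545 with Agilent's processed signals, 1501 with the deposited ratio table, 2630 with array quality weights (total RNA weights 0.65, 1.57, 1.80 and 0.38) and 1471 with slide as a random block (correlation -0.27). Total RNA arrays 1 and 4 shared a slide, arrays 2 and 3 had their own, and array 2 alone was scanned on another day. With each total RNA or heavy polysome array left out, counts ran from 46 (without total RNA array 3) to 1327 (without heavy polysome array 1), with 178, 125 and 248 without total RNA arrays 1, 2 and 4 and 295, 1087 and 258 without heavy polysome arrays 2, 3 and 4. Differences between fractions among called genes numbered 4 with array weights and 0 elsewhere. The labels link arrays of the 2 fractions by replicate number only. Deviations of same-numbered arrays correlated at -0.02, 0.17, -0.11 and -0.30. These values cannot decide whether the arrays were paired, since the arrays differed in scatter. The replicate block, which pairs arrays by number, gave 210 calls. Counts stayed within 1.5 times with total RNA arrays alone (714), no background correction (766), no filter (449), both channels above background (644), the mean of probes (864) and without the 2 scattered arrays (692). With total RNA arrays alone, 486 of the 640 calls were among the 714. The cause of these moves in the counts was not tested.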
